A study of Homo sapiens with 8 samples.

Results

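Antisense and divergent RNAs are long noncoding RNAs named after the gene they lie against. A name ending in AS and a number is given to an RNA read from the opposite strand of its partner gene, and a name ending in DT to a divergent transcript that starts near the partner's start and runs the other way. All genes of GENCODE release 29 with such a name, a gene type other than protein coding and at least 1000 counts summed over the 8 libraries were taken, which gave 105 of the 1295 genes so named and of 58721 genes in all. Of these 105 RNAs, 95 end in AS and 10 in DT, and all 105 were tested. They were chosen by their counts in these same libraries, so their abundance is a property of the choice. An RNA near the minimum, such as ID2-AS1 with 1116 counts, TMEM147-AS1 with 1128 or ZNF674-AS1 with 1224, can also be in the set because it rose in a group. The rises of such RNAs are therefore a description. Just above the minimum stood URB1-AS1 with 1016 counts and FBXL19-AS1 with 1021, and the named RNAs just below the minimum were MCF2L-AS1 with 987, ZNF528-AS1 with 983 and ZNF571-AS1 with 953.

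The RNAs were counted in 2 human neuroblastoma cell lines, tumour lines of the sympathetic nervous system grown in culture. CHLA-20 was grown in IMEM with insulin, transferrin and selenite, and NGP in RPMI1640, so line and medium cannot be told apart. Each line received the vehicle DMSO or an inhibitor of PRMT5, an arginine methyltransferase that modifies histones and components of the spliceosome, for 6 days. The sample labels call the inhibitor JSK591 while the treatment protocol writes GSK591, and the dose was the IC50, with no concentration stated. There were 4 groups of 2 libraries: CHLA-20 DMSO, CHLA-20 JSK591, NGP DMSO and NGP JSK591. The labels do not say whether replicates are separate cultures, so p-values measure the spread between these libraries, which may be technical.

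Transcription starts in both directions from most human promoters. The upstream, antisense product is usually ended early by cleavage and polyadenylation and degraded by the nuclear exosome, while a minority of such RNAs are spliced, polyadenylated and stable. A few of them have described roles: HAND2-AS1 lies beside HAND2, a transcription factor of sympathetic neuroblasts, and OIP5-AS1 and LRRC75A-AS1, named SNHG29 in RefSeq, are abundant in many cell types. The libraries were made from RNA enriched for messenger RNA, so only RNAs that pass this enrichment were counted.

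By name, 103 of the 105 have a partner gene, and all 103 partners are protein coding. RPARP-AS1 and HOXC-AS1 have none. In the annotation, 44 overlap the partner head to head, with the 5′ ends overlapping, 22 are divergent without overlap, 21 overlap tail to tail, 10 enclose the partner and 6 lie inside it. Of the 105, 27 share no exonic base with another gene, 63 share under 20% and 15 share 20% or more. Shared exons matter because the counting made no use of strand: of 324 antisense genes whose exons are wholly covered by exons of the other strand, 324 had 0 counts in all libraries, while of 2377 antisense genes that share no exonic base, 509 had 0. Reads in shared exons were left out as ambiguous, and unspliced RNA of a partner that crosses the exons of an antisense RNA is counted as the antisense RNA.

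The starts of 5 RNAs are shown as picked examples: HAND2-AS1 moved with its partner in both lines, and the others moved against theirs in NGP. Opposite movement was not the rule. Among the RNAs higher in NGP, the partner was higher in 14 pairs, lower in 13 and without a call in 23. With DESeq2, ID2-AS1 and EIF3J-DT lost their call in NGP. Each stretch runs 5′ to 3′ on the strand of the RNA, from the base after the partner's start to 50 bases into the RNA, so it holds all bases between the starts. Capitals mark matches on either strand to a GC box, a CCAAT box or an ETS core. Sequences and starts are those of RefSeq on GRCh38.p14, where COX10-AS1 is named COX10-DT. GENCODE has other first exons for some of them, and there HAND2-AS1 and ID2-AS1 overlap their partners head to head.
HAND2-AS1 (chr4:173530230-173530507, plus strand): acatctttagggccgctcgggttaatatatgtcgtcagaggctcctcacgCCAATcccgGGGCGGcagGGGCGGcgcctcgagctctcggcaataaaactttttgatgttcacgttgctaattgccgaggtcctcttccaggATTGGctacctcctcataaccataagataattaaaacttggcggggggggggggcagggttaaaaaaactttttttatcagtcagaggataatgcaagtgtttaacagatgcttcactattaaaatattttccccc
ID2-AS1 (chr2:8681812-8682055, minus strand): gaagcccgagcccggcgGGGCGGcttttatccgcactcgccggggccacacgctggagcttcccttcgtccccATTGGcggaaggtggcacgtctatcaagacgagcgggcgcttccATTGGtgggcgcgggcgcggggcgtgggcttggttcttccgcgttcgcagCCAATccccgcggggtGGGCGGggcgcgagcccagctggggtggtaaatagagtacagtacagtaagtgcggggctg
NIPBL-DT (chr5:36876645-36876768, minus strand): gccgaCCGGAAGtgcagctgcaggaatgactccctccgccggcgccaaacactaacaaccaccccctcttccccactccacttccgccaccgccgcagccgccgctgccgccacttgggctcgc
COX10-AS1 (chr17:14069409-14069503, minus strand): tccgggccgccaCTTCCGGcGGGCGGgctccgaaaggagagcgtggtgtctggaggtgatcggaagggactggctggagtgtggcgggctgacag
EIF3J-DT (chr15:44536851-44537146, minus strand): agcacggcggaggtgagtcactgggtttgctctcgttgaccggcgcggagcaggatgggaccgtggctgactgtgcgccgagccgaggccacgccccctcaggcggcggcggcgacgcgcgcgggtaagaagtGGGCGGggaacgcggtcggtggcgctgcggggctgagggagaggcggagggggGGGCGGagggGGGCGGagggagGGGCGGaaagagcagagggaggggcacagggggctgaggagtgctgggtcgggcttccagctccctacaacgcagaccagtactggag

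In RefSeq the distance between the starts is 46 bases for COX10-AS1 and COX10, 75 for NIPBL-DT and NIPBL, 195 for ID2-AS1 and ID2, 229 for HAND2-AS1 and HAND2, and 247 for EIF3J-DT and EIF3J. The stretches of ID2-AS1 and EIF3J-DT hold 28 and 31 CG dinucleotides, and that of HAND2-AS1 holds 13. RefSeq gives a promoter window of 300 bases, 250 before the start and 50 after it, for 90 of the 105 RNAs, and in 21 of them the partner starts inside the window on the other strand. A GC box, searched as GGGCGG, stood in 65.6% of the 90 windows against 45.0% of all 35116 windows of the table. An ETS core, searched as CCGGAAG, stood in 16.7% against 10.3%. The letters CCAAT stood in 32.2% against 34.6%. A cyclic AMP response element, searched as TGACGTCA, stood in 4.44% against 1.85%. An NRF1 palindrome stood in 3.33% against 1.24%, and a TATA box, searched as TATAAA, in 5.56% against 11.5%. Motifs were searched on both strands. The median number of CG dinucleotides was 25 against 14. These are matches of letters only.

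A library held 33188542 to 34914902 counts in genes, so 3 counts, the limit that a count of 0 allows, came to at most 0.0904 CPM (counts per 1e6 counts). That limit and the intervals given here cover counting error alone, because PCR copies of 1 molecule cannot be told from separate molecules in these libraries. The 105 RNAs took 0.261% and 0.262% of gene counts in CHLA-20 DMSO, 0.255% and 0.255% in CHLA-20 JSK591, 0.174% and 0.172% in NGP DMSO and 0.202% and 0.198% in NGP JSK591. Of 8 markers of sympathetic neuroblasts, 8 were detected, with summed levels of 4110, 3270, 2250 and 2240 CPM in the 4 groups in the order above. Markers of blood cells summed to at most 0.35 CPM and those of epithelium to at most 2.91 CPM, while 10 markers of fibroblasts and Schwann cells summed to 495, 426, 596 and 680 CPM. COL1A1 carried that sum in NGP, with means of 547 CPM with DMSO and 637 with JSK591 against 71.0 and 47.7 in CHLA-20. Of the 9 of these markers tested, 6 were lower in NGP DMSO than in CHLA-20 DMSO, among them DCN at 0.12 against 134 CPM and LUM at 3.78 against 158, and with JSK591 in NGP 1 was higher and 2 lower. The part of such markers in the results was not tested, and fewer cells of a type and less RNA per cell cannot be told apart in such bulk samples.

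Per kilobase of exon, the median RNA stood at 2.18 CPM in CHLA-20 DMSO, 2.10 in CHLA-20 JSK591, 1.73 in NGP DMSO and 2.13 in NGP JSK591. The median ratio of an RNA's level to its partner's, per kilobase, was 0.341, 0.344, 0.246 and 0.332. An RNA stood above its partner in 38, 37, 30 and 34 of the 103 pairs.

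The most abundant was LRRC75A-AS1, a spliced host of small nucleolar RNAs, at 714 and 739 CPM in CHLA-20 DMSO, 724 and 726 in CHLA-20 JSK591, 149 and 147 in NGP DMSO and 149 and 156 in NGP JSK591. The inhibitor left its groups overlapping in both lines (log2 changes -0.00 ± 0.04 SE and 0.04 ± 0.04, n = 2 libraries a group), and the lines did not overlap. HAND2-AS1 followed at 325 and 320, 262 and 257, 283 and 271, and 366 and 356 CPM in the same order of groups. OIP5-AS1 stood at 134 to 179 CPM, FGD5-AS1 at 74.3 to 136, MAGI2-AS3 at 61.8 to 90 and THAP9-AS1 at 48.1 to 82.7 over the 8 libraries.

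In CHLA-20, JSK591 moved about as many of the RNAs up as down. Of the 105, 27 (25.7%) were higher and 26 (24.8%) lower than with DMSO by edgeR's quasi-likelihood test at an adjusted p under 0.05, and the median log2 change was -0.03. Of all 19395 genes tested, 16.9% were higher and 22.4% lower. Among genes with the same minimum of 1000 counts, 22.8% were higher and 31.5% lower, among protein-coding genes with that minimum 23.1% and 32.5%, and among the 270 other long noncoding genes with it 27.8% and 22.6%.

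The largest rise in CHLA-20 was that of SH3BP5-AS1, which overlaps the tail of SH3BP5, a gene whose product binds the kinase JNK. It stood at 2.31 and 2.13 CPM with DMSO and at 4.82 and 4.64 with JSK591, a log2 change of 1.09 ± 0.16 (SE, edgeR adjusted p = 4.13e-08). Its partner went the other way, from 4.56 and 5.75 CPM to 3.43 and 3.0 (log2 -0.68 ± 0.14, edgeR adjusted p = 3.7e-05). The groups overlapped in neither gene, and 34.5% of the exonic bases of SH3BP5-AS1 are shared with another gene. Introns of SH3BP5 hold a further 53.9%, where unspliced SH3BP5 RNA can be counted as SH3BP5-AS1, and its part was not tested. FBXL19-AS1, head to head with a gene of a CpG-binding F-box protein, rose from 3.61 and 3.88 CPM to 7.19 and 7.82 (log2 1.00 ± 0.14). FBXL19 stood at 51.3 and 52.6 against 51.0 and 50.1. With 1021 counts in all, FBXL19-AS1 can be in the set because it rose. Its rise, also with 1 library left out, is therefore a description. SLC25A25-AS1, which meets the tail of a gene for a mitochondrial carrier of ATP and magnesium, rose from 11.3 and 11.3 CPM to 21.6 and 22.4 (log2 0.96 ± 0.09). PSMA3-AS1, which overlaps the tail of a proteasome subunit gene, rose from 16.6 and 15.8 CPM to 27.8 and 29.3 (log2 0.82 ± 0.07). PSMA3 rose by a log2 of 0.24 ± 0.05.

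TMCC1-AS1 and ZNF667-AS1 completed the 6 largest called rises whose groups did not overlap, with log2 changes of 0.80 ± 0.15 and 0.75 ± 0.10. TMCC1, a gene of an endoplasmic reticulum membrane protein, fell by 0.35 on the log2 scale, while ZNF667, a zinc finger gene, rose by a log2 of 0.51 ± 0.11 along with its antisense RNA. The call of each of these 6 RNAs in CHLA-20 held when any 1 library was left out.

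The 6 largest called falls in CHLA-20 whose groups did not overlap were those of KIF25-AS1, SLC9A3-AS1, PROX1-AS1, PRKCQ-AS1, NIFK-AS1 and NRSN2-AS1. SLC9A3-AS1 lies inside the gene of a sodium and proton exchanger and fell from 12.5 and 11.6 CPM to 7.04 and 6.04 (log2 -0.88 ± 0.11, edgeR adjusted p = 4.74e-10). PROX1-AS1, head to head with a homeobox gene, fell from 9.17 and 7.41 CPM to 4.59 and 5.74 (log2 -0.68 ± 0.12), and PROX1 fell by 0.17 on the log2 scale. NIFK-AS1 fell from 6.51 and 5.90 CPM to 4.24 and 4.22 (log2 -0.55 ± 0.13), while NIFK, a nucleolar protein gene, rose from 36.9 and 35.9 to 49.1 and 46.8 (log2 0.40 ± 0.05).

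The calls of the other three were each lost without 1 library. KIF25-AS1 stood at 1.86 and 1.01 CPM with DMSO and at 0.577 and 0.743 with JSK591 (log2 -1.12 ± 0.29), and without CHLA-20 DMSO replicate 1 the change was -0.61 (edgeR adjusted p = 0.201). PRKCQ-AS1 stood at 5.62 and 5.81 against 4.33 and 2.91 CPM (log2 -0.65 ± 0.14), and without CHLA-20 JSK591 replicate 2 the change was -0.40 (edgeR adjusted p = 0.0539). NRSN2-AS1 stood at 5.59 and 4.86 against 3.61 and 3.69 CPM (log2 -0.52 ± 0.14), and without CHLA-20 DMSO replicate 1 the change was -0.41 (edgeR adjusted p = 0.0529).

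In NGP the balance was different: 52 of the 105 RNAs (49.5%) were higher with JSK591 and 10 (9.52%) lower, with a median log2 change of 0.26. Of all genes tested, 16.8% were higher and 19.4% lower, with a median of 0.00. Of those with at least 1000 counts, 20.5% were higher and 28.9% lower. Among protein-coding genes with at least 1000 counts the shares were 19.9% and 30.2%. The 270 other long noncoding genes with that minimum had 50.4% higher and 9.63% lower and a median of 0.30. The shares of the named antisense and divergent RNAs were thus near those of other long noncoding RNAs counted as well. Those 270 were chosen by gene type and leave out only the 105, so they can include antisense and divergent RNAs without such a name. Of the 382 named antisense and divergent RNAs tested below the minimum, 18.3% were higher and 1.83% lower, with a median log2 change of 0.31. DESeq2 called 43 of the 105 higher and 6 lower.

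**Figure D1:**
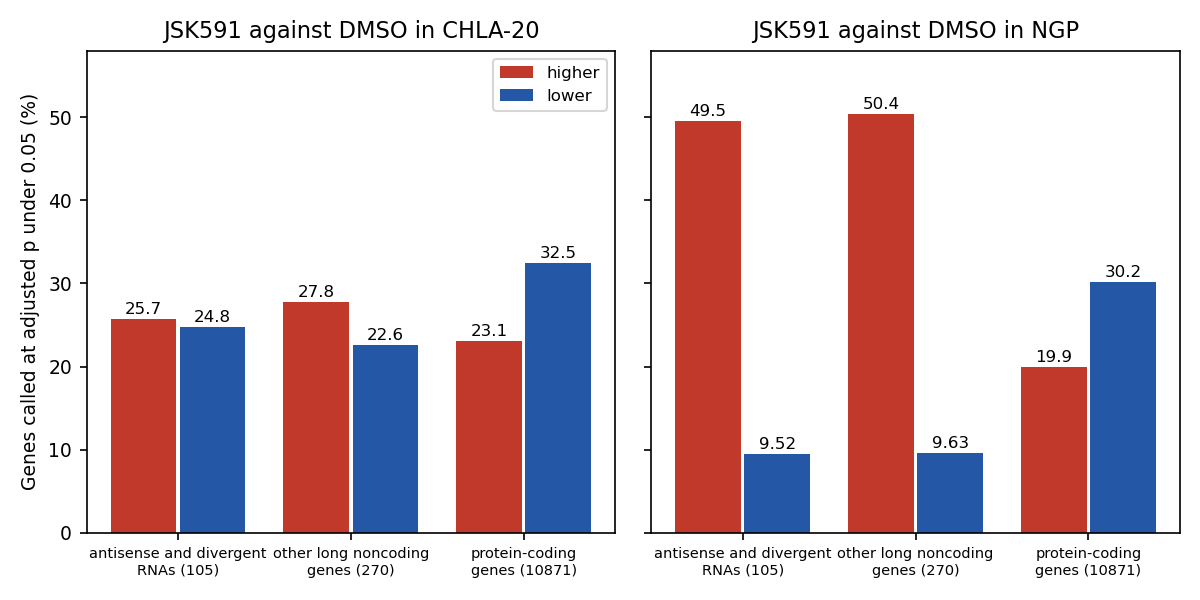
Share of genes called higher (red) or lower (blue) with JSK591, in percent of the genes of each set, in CHLA-20 (left) and NGP (right), among genes with at least 1000 summed counts. In NGP 49.5% of the 105 antisense and divergent RNAs and 50.4% of the 270 other long noncoding genes were higher, against 19.9% of protein-coding genes.

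Reads placed outside genes made up 6.86% and 6.85% of the reads in NGP DMSO and 6.45% and 6.05% in NGP JSK591, and their part in the result was not tested. The counts also varied with the share of exonic bases that an RNA shares with other genes, and no difference between these classes was tested. Among the 27 RNAs with no shared exonic base, 17 were higher and 1 lower, with a median log2 change of 0.40. Among the 63 that share some but under 20%, 31 were higher and 7 lower, with a median of 0.27. Among the 15 with at least 20% shared, 4 were higher and 2 lower, with a median of 0.14.

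TMEM147-AS1, head to head with the gene of an endoplasmic reticulum membrane protein, had the largest rise in NGP, from 1.70 and 1.35 CPM to 4.1 and 4.0 (log2 1.41 ± 0.19, edgeR adjusted p = 1.27e-08). Of its exonic bases 20.9% are shared with another gene. TMEM147-AS1 and ZNF674-AS1, with 1128 and 1224 counts in all, can be in the set because they rose, so their rises are a description. TMEM147 itself stood at 33.9 and 34.8 against 33.6 and 35.3 CPM. ZNF674-AS1, divergent to a zinc finger gene on the X chromosome with no shared base, rose from 2.74 and 2.19 CPM to 5.63 and 6.44 (log2 1.29 ± 0.15), and ZNF674 stood at 3.82 and 3.12 against 3.75 and 3.62.

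NIPBL-DT, divergent to the gene of the cohesin loader NIPBL, rose from 17.6 and 17.2 CPM to 35.4 and 37.4 in NGP (log2 1.06 ± 0.07, edgeR adjusted p = 9.3e-21). NIPBL fell over the same libraries from 132 and 123 CPM to 108 and 109 (log2 -0.23 ± 0.04, edgeR adjusted p = 9.75e-06). The groups overlapped in neither gene, and neither shares an exonic base with another gene. DLX6-AS1, which encloses the homeobox gene DLX6, rose from 3.07 and 2.61 CPM to 5.46 and 6.14 (log2 1.03 ± 0.14), while DLX6 fell by 0.20 on the log2 scale. The fall of DLX6 lost its call without NGP DMSO replicate 1 (edgeR adjusted p = 0.105) and without NGP JSK591 replicate 2 (edgeR adjusted p = 0.0636). ATP6V0E2-AS1, beside a proton pump subunit gene, stood at 0.686 and 0.420 against 0.924 and 1.41 CPM (log2 1.07 ± 0.30), and without NGP JSK591 replicate 2 the change was 0.74 (edgeR adjusted p = 0.128), and without NGP DMSO replicate 2 it was 0.75 (edgeR adjusted p = 0.101).

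FOXD2-AS1 also rose, from 7.36 and 7.40 CPM to 14.9 and 14.8 in NGP (log2 1.01 ± 0.10). Of its 1515 counts, 494 were in NGP DMSO and 2 in CHLA-20 DMSO, so it passed the minimum through its counts with JSK591. The partner FOXD2, a forkhead factor gene, rose from 2.89 and 2.88 to 4.42 and 4.85 CPM. SLC25A25-AS1 rose in NGP by nearly the same amount as in CHLA-20, from 4.68 and 3.45 CPM to 8.40 and 7.09 (log2 0.93 ± 0.12).

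The called falls in NGP were smaller. EPB41L4A-AS1, an RNA that hosts a small nucleolar RNA, fell from 45.8 and 46.6 CPM to 29.4 and 31.4 (log2 -0.60 ± 0.06, edgeR adjusted p = 8.11e-14), and fell in CHLA-20 from 52.6 and 51.0 to 37.5 and 35.8 (log2 -0.50 ± 0.05). Of its exonic bases 49.6% are shared with other genes. SVIL-AS1, which overlaps the tail of an actin-binding protein gene, fell from 19.6 and 18.5 CPM to 14.2 and 14.8 (log2 -0.40 ± 0.08). NUTM2B-AS1 fell from 17.1 and 17.4 CPM to 14.3 and 14.3 (log2 -0.27 ± 0.08).

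The calls of TPT1-AS1, VLDLR-AS1 and TRIM52-AS1 in NGP did not hold under every setting. TPT1-AS1 changed by a log2 of -0.36 ± 0.13, and by -0.25 without NGP DMSO replicate 1 (edgeR adjusted p = 0.266) or without NGP JSK591 replicate 2 (edgeR adjusted p = 0.251). VLDLR-AS1 changed by -0.32 ± 0.11, with an adjusted p of 0.071 in edgeR without NGP DMSO replicate 2 and 0.0824 without NGP JSK591 replicate 1. TRIM52-AS1 changed by -0.27 ± 0.09, with an adjusted p of 0.0798 in edgeR without NGP DMSO replicate 1 and 0.0922 without NGP JSK591 replicate 2. DESeq2 gave them, in this order, adjusted p-values of 0.0871, 0.0617 and 0.0657.

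**Figure D2:**
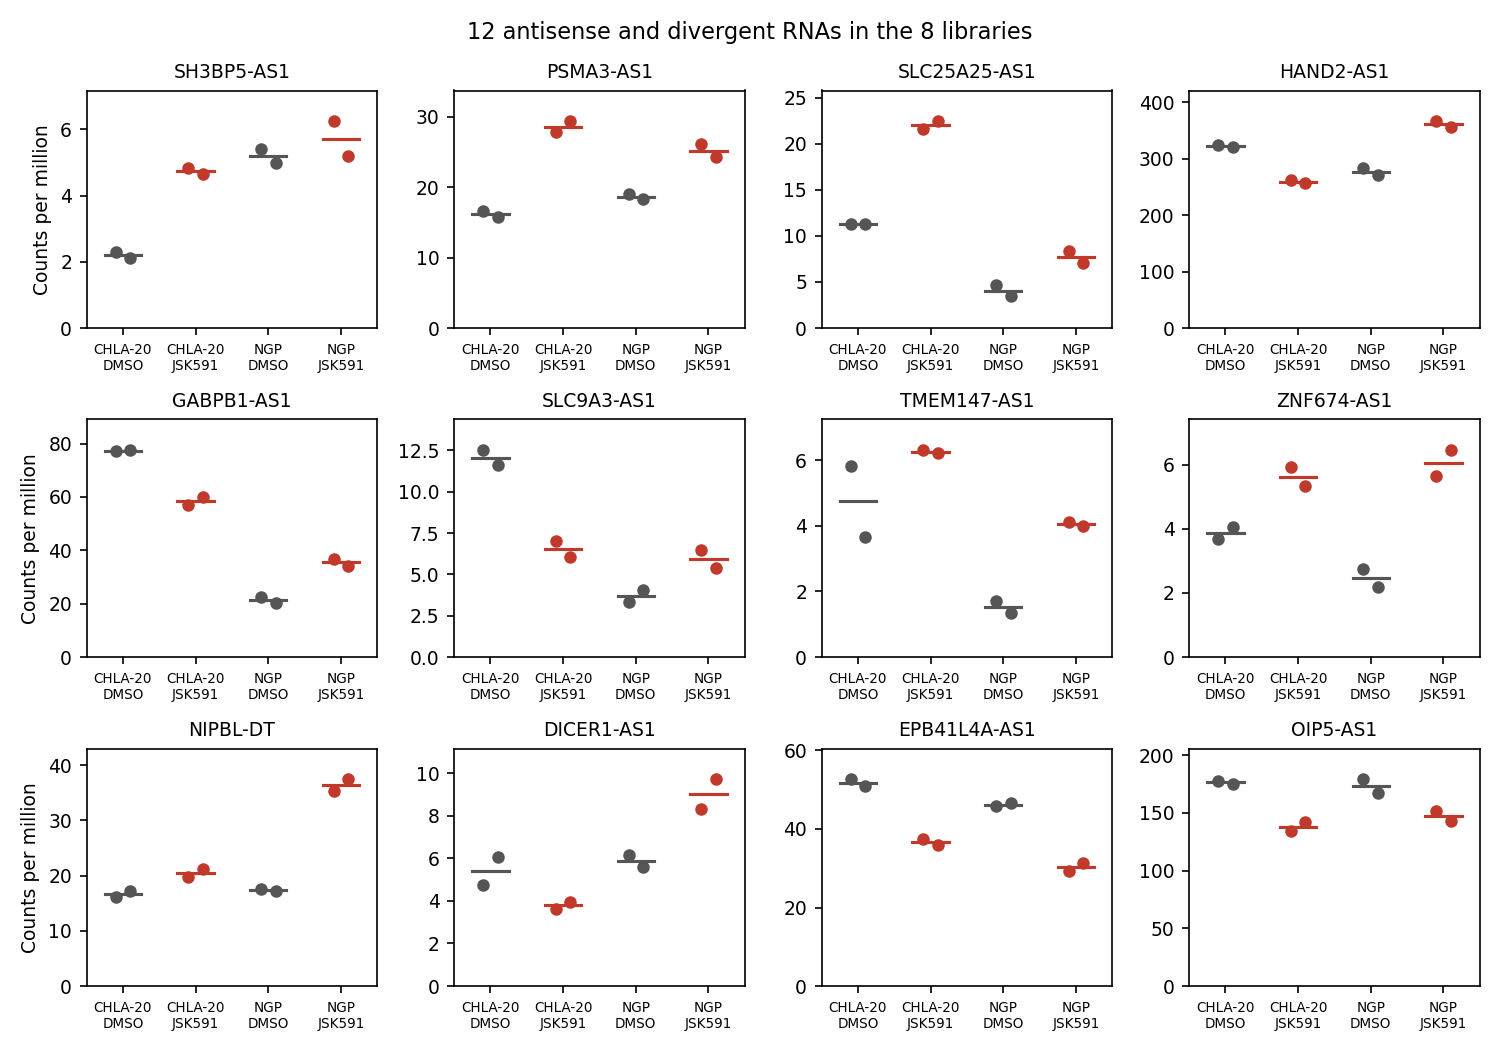
CPM of 12 antisense and divergent RNAs in each of the 8 libraries (points) with the group mean (line), grey for DMSO and red for JSK591, on axes that start at 0. NIPBL-DT stands at 35.4 and 37.4 in NGP JSK591 against 17.6 and 17.2 in NGP DMSO, and HAND2-AS1 is lower with JSK591 in CHLA-20 and higher in NGP.

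Set side by side, 22 RNAs were higher in both lines and 4 were lower in both: OIP5-AS1, THAP9-AS1, EPB41L4A-AS1 and RBMS3-AS2. Another 10 were lower in CHLA-20 and higher in NGP, and 0 went the other way by edgeR's adjusted p, by its unadjusted p or by DESeq2. A further 20 were higher in NGP with no call in CHLA-20, and 26 were called in neither line. The shares of all genes in these joint classes were not computed. More RNAs were higher than lower in NGP, as among the other long noncoding genes, so the joint counts are a description. The count of 10 was 6 without CHLA-20 DMSO replicate 2, and the count of 4 was 2 without CHLA-20 JSK591 replicate 1, where the changes of THAP9-AS1 and RBMS3-AS2 in CHLA-20 were -0.15 (edgeR adjusted p = 0.0589) and -0.20 (edgeR adjusted p = 0.543). The fall of RBMS3-AS2 in CHLA-20 (log2 -0.47, edgeR adjusted p = 0.0434) was lost under most settings, among them DESeq2 (adjusted p = 0.0704), total count scaling (adjusted p = 0.0549), no filter on low counts (adjusted p = 0.151), and edgeR without CHLA-20 DMSO replicate 1 (-0.37, adjusted p = 0.249) or replicate 2 (-0.53, adjusted p = 0.0676). Over the 102 RNAs with at least 10 counts in each line, the 2 changes had a Pearson r of 0.44 and a Spearman rho of 0.44, as a description across RNAs, which are not independent replicates.

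**Figure D3:**
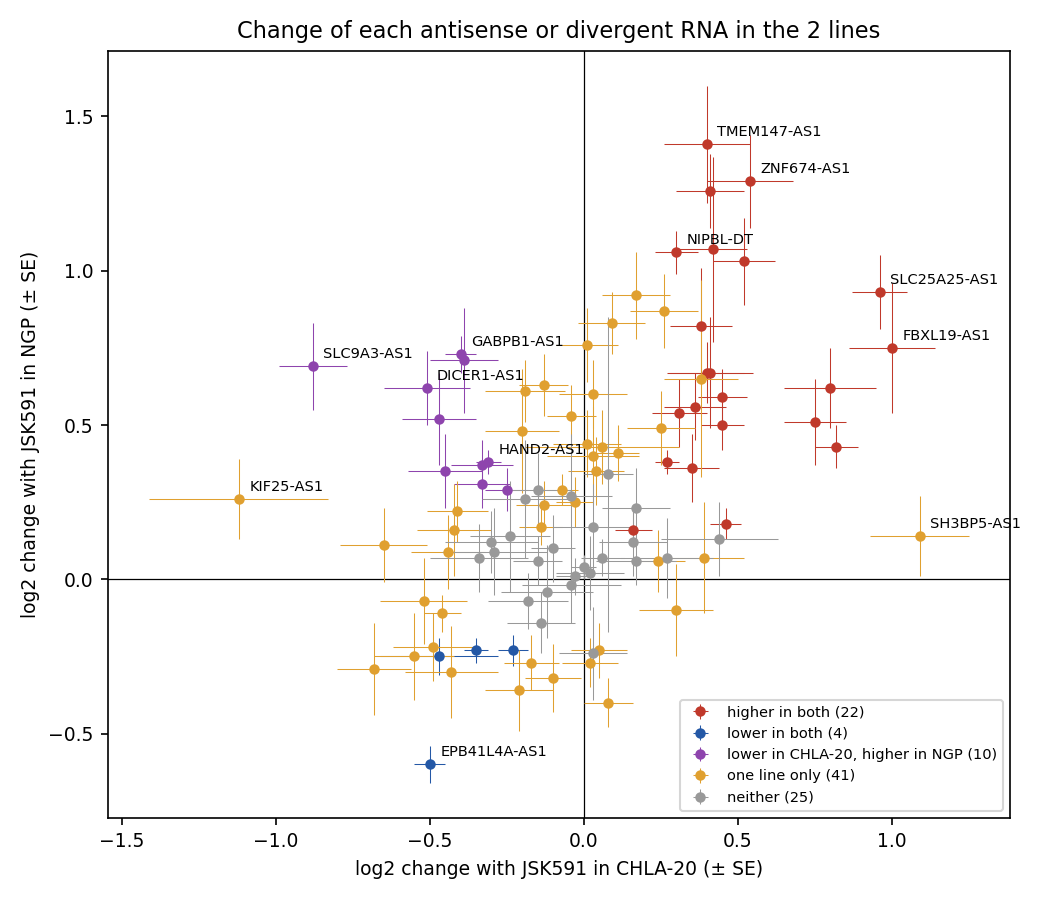
Log2 change with JSK591 in CHLA-20 (x axis) against that in NGP (y axis) for the 102 RNAs with at least 10 counts in each line, with bars of 1 SE and colours by the calls at an adjusted p under 0.05. More points lie above the horizontal line than below it, the 10 purple points are lower in CHLA-20 and higher in NGP, and 3 RNAs with almost no counts in one line are left out.

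The difference of the 2 effects was tested in the same fit. The effect in NGP was above that in CHLA-20 for 36 RNAs (34.3%) and below it for 4 (3.81%), against 15.2% and 12.5% of all genes tested and 20.8% and 19.0% of those with at least 1000 counts. Among the 270 other long noncoding genes the shares were 33.7% and 6.67%. The 4 with a lower effect in NGP were SH3BP5-AS1, SVIL-AS1, PSMA3-AS1 and MAGI2-AS3.

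GABPB1-AS1, head to head with the gene of a GABP transcription factor subunit, went in opposite directions. It fell in CHLA-20 from 77.2 and 77.4 CPM to 57.1 and 60.0 (log2 -0.40 ± 0.05) and rose in NGP from 22.6 and 20.4 to 36.9 and 34.3 (log2 0.73 ± 0.06), a difference of 1.13 ± 0.08 (edgeR adjusted p = 6.46e-18). GABPB1 stood at 25.5 and 27.0 against 29.3 and 27.9 CPM in CHLA-20 and at 25.3 and 25.1 against 23.2 and 24.0 in NGP. Among the RNAs called for the difference, SLC9A3-AS1 had the largest, 1.57 ± 0.17 (edgeR adjusted p = 7.56e-11). It rose in NGP from 3.31 and 4.05 CPM to 6.47 and 5.38. Its enclosing partner SLC9A3 was also called lower in CHLA-20 and higher for the difference by edgeR. DESeq2 gave SLC9A3 -0.70 in CHLA-20 (adjusted p = 0.156) and 1.10 for the difference (adjusted p = 0.138). Unspliced SLC9A3 RNA can be counted as SLC9A3-AS1, and its part was not tested.

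HAND2-AS1 and HAND2 reversed together. HAND2-AS1 changed by a log2 of -0.31 ± 0.04 in CHLA-20 and 0.38 ± 0.04 in NGP. HAND2 went from 766 and 806 CPM to 546 and 529 in CHLA-20 (log2 -0.55 ± 0.04) and from 638 and 688 to 836 and 838 in NGP (log2 0.34 ± 0.04). The differences between lines were 0.70 ± 0.05 for the RNA (edgeR adjusted p = 1.04e-16) and 0.89 ± 0.05 for its partner (edgeR adjusted p = 5.64e-21), and the groups within a line overlapped in neither gene.

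DICER1-AS1, beside the gene of the microRNA-processing enzyme, stood at 4.73 and 6.04 against 3.64 and 3.93 CPM in CHLA-20 and at 6.14 and 5.60 against 8.32 and 9.70 in NGP, a difference of 1.13 ± 0.18. Its fall in CHLA-20 was -0.51 ± 0.14 on the log2 scale and -0.30 without CHLA-20 DMSO replicate 2 (edgeR adjusted p = 0.176). DICER1 rose in both lines, by 0.48 ± 0.04 and 0.22 ± 0.04. NUP50-DT, divergent to a nuclear pore gene, stood at 10.2 and 9.01 against 7.59 and 7.08 CPM in CHLA-20 and at 1.64 and 2.40 against 3.06 and 3.56 in NGP, a difference of 1.10 ± 0.21. Its calls within a line were lost without CHLA-20 DMSO replicate 1 (log2 -0.29, edgeR adjusted p = 0.0911), without CHLA-20 JSK591 replicate 2 (-0.34, adjusted p = 0.0651) and without NGP DMSO replicate 1 (0.44, adjusted p = 0.0987).

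PRKAG2-AS1, beside a subunit gene of the kinase AMPK, changed by -0.47 ± 0.12 in CHLA-20 and 0.52 ± 0.15 in NGP, and the difference was 0.99 ± 0.20. Its call in CHLA-20 was lost without CHLA-20 JSK591 replicate 1 (log2 -0.31, edgeR adjusted p = 0.105) and its call in NGP without NGP DMSO replicate 2 (0.43, adjusted p = 0.0777). The difference for KIF25-AS1 was 1.38 ± 0.32, and 0.86 without CHLA-20 DMSO replicate 1 (edgeR adjusted p = 0.0878). That for TMEM147-AS1 was 1.01 ± 0.24, and 0.64 without the same library (edgeR adjusted p = 0.0518). The CHLA-20 DMSO libraries differed for TMEM147-AS1, at 5.83 and 3.67 CPM.

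The upward shift in NGP was seen in the RNAs and not in the median of their partners. Over the 102 pairs with both genes tested, the median log2 change was 0.26 for the RNAs and 0.00 for the partners, of which 22 were higher and 28 lower. Of the 50 RNAs that were higher in such pairs, the partner was higher in 14, lower in 13 and without a call in 23. The count of 13 was 6 without NGP DMSO replicate 1, 7 without NGP JSK591 replicate 2 and 7 with DESeq2, and the count of 14 was 8, 9 and 8 without NGP DMSO replicate 1, NGP DMSO replicate 2 and NGP JSK591 replicate 2. In CHLA-20 the medians were -0.03 and -0.04. Over the 99 pairs whose RNA had at least 10 counts in each line, the changes of RNA and partner had a Pearson r of 0.11 in CHLA-20 and 0.13 in NGP, a Spearman rho of 0.11 in both, and the same sign in 49 and 48. These are descriptions, and both genes of a pair come from the same libraries.

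By layout, the values were as follows. For the 6 RNAs inside their partner, r was 0.88 in CHLA-20 and 0.89 in NGP, with the same sign in 5 and 3 pairs. For the difference between the untreated lines their r was -0.47. In this layout unspliced partner RNA can be counted as the RNA inside it, and its part was not tested. For the 43 overlapping head to head, r was 0.24 and 0.0074. For the 21 divergent pairs without overlap, r was 0.044 and 0.087. For the 20 overlapping tail to tail, r was -0.29 and 0.23, and for the 9 RNAs that enclose their partner it was -0.21 and -0.23. No test of a difference between layouts was made.

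**Figure D4:**
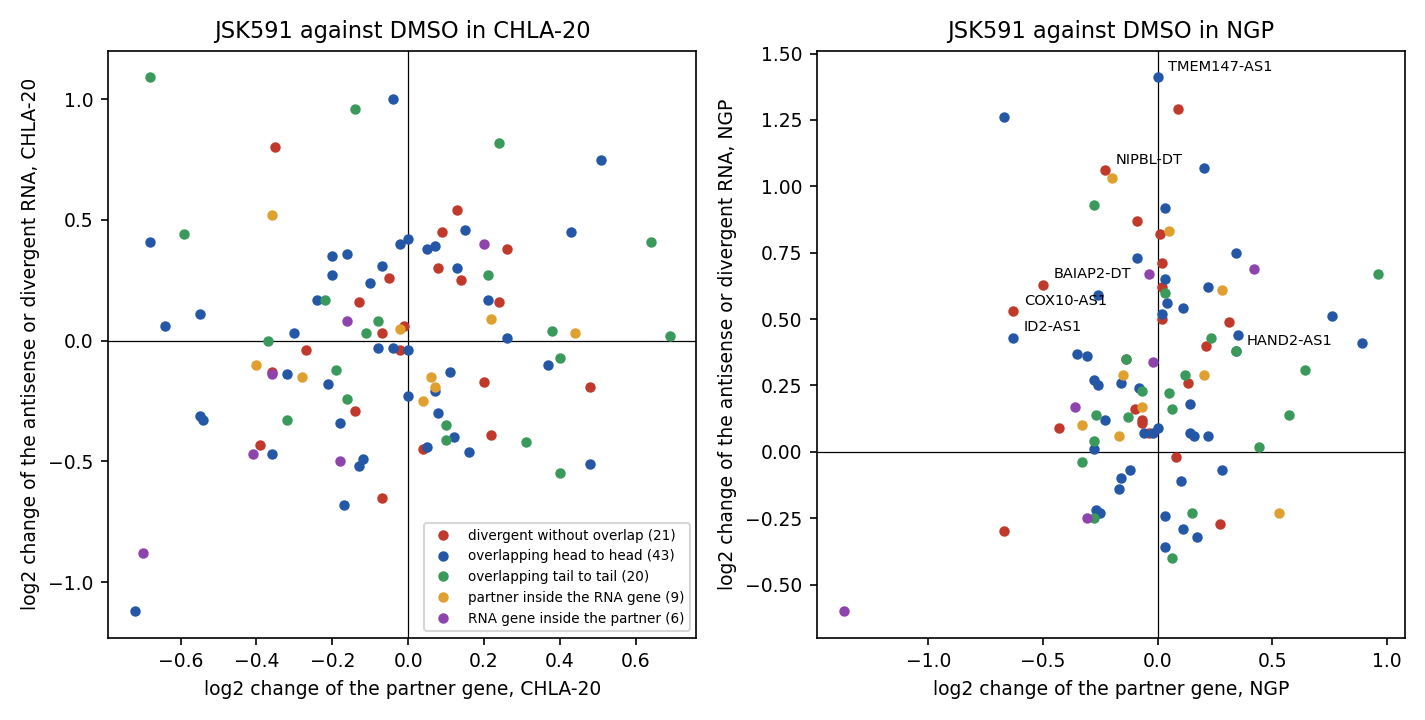
Log2 change of the partner gene (x axis) against that of its antisense or divergent RNA (y axis) in CHLA-20 (left) and NGP (right) for 99 pairs, coloured by their layout in the annotation. In NGP more points lie above 0 on the y axis than below it, on both sides of the vertical line, with NIPBL-DT, COX10-AS1, BAIAP2-DT and ID2-AS1 above 0 while their partners are below it.

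The 22 divergent pairs without overlap are those whose genes do not share a stretch of the genome. In NGP 14 of these RNAs were higher and 1 lower, with a median log2 change of 0.44, while 4 of their partners were higher and 6 lower, with a median of -0.02. In CHLA-20, 6 of them were higher and 4 lower. Of the 10 RNAs with a DT name, 7 were higher in NGP and 0 lower by edgeR's adjusted p, with 1 lower at an unadjusted p under 0.05 and 0 by DESeq2, and their median was 0.52. Beside these counts, 49.5% of all 105 RNAs, 50.4% of the 270 other long noncoding genes and 16.8% of all genes tested were higher in NGP. Whether divergent or DT RNAs differ from the rest was not tested.

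Several of the pairs whose starts are shown above moved in opposite directions in NGP. COX10-AS1, beside the gene of an enzyme in the synthesis of heme A, rose from 6.68 and 5.93 CPM to 8.46 and 9.79 (log2 0.53 ± 0.10, edgeR adjusted p = 3.42e-05). COX10 fell from 49.9 and 50.2 to 32.9 and 31.7 (log2 -0.63 ± 0.06, edgeR adjusted p = 1.49e-14). In CHLA-20, COX10-AS1 changed by -0.04 ± 0.08 and COX10 by -0.27 ± 0.05. ID2-AS1, beside the gene of an inhibitor of basic helix-loop-helix factors, stood at 5.81 and 6.23 against 8.17 and 8.06 CPM (log2 0.43 ± 0.12), while ID2 fell from 444 and 451 to 287 and 292 (log2 -0.63 ± 0.04). The call of ID2-AS1 was lost with DESeq2 (log2 0.41, DESeq2 adjusted p = 0.0958) and without NGP DMSO replicate 1 (log2 0.35). EIF3J-DT, beside a translation initiation factor gene, changed by 0.35 ± 0.12 in NGP and -0.45 ± 0.12 in CHLA-20, and EIF3J by -0.14 ± 0.04 and 0.04 ± 0.04. The call of EIF3J-DT in NGP was lost with DESeq2 (log2 0.34, DESeq2 adjusted p = 0.117). It was also lost without NGP JSK591 replicate 2 (log2 0.23), without NGP DMSO replicate 2 (0.31) and without NGP DMSO replicate 1 (0.35).

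BAIAP2-DT, divergent to the gene of a membrane-bending scaffold protein, rose in NGP from 6.62 and 6.92 CPM to 11.1 and 9.88 (log2 0.63 ± 0.10), while BAIAP2 fell from 76.1 and 76.6 to 53.7 and 53.9 (log2 -0.50 ± 0.05). WAC-AS1 changed by 0.36 ± 0.11 and WAC, a gene of a regulator of histone ubiquitination, by -0.31 ± 0.04, and the call of WAC-AS1 was lost without NGP DMSO replicate 1 (log2 0.31, edgeR adjusted p = 0.0733) and without NGP JSK591 replicate 2 (0.26, adjusted p = 0.136). ZEB1-AS1 rose by 0.37 ± 0.08 in NGP while ZEB1, a transcription factor gene of mesenchymal cells, fell by 0.35 on the log2 scale. In CHLA-20, ZEB1-AS1 changed by -0.33 ± 0.10 and ZEB1 by -0.54 ± 0.04, and the call of ZEB1-AS1 there was lost without CHLA-20 JSK591 replicate 2 (-0.19, edgeR adjusted p = 0.216) and without CHLA-20 DMSO replicate 2 (-0.27, adjusted p = 0.0852).

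In CHLA-20, RNA and partner changed with the same sign in 49 of the 99 pairs whose RNA had at least 10 counts in each line. By calls, 7 RNAs were higher with the partner higher and 10 lower with the partner lower. Another 5 were higher with the partner lower and 5 lower with the partner higher. Of these opposite pairs, the first were WAC-AS1, RNF144A-AS1, DLX6-AS1, TMCC1-AS1 and SH3BP5-AS1, and the second MAPKAPK5-AS1, DICER1-AS1, NUP50-DT, CCDC18-AS1 and NIFK-AS1. DLX6-AS1 rose from 7.84 and 8.0 CPM to 11.3 and 11.3 there, and DLX6 fell from 35.7 and 33.1 to 25.4 and 28.1. CCDC18-AS1 changed by -0.42 ± 0.12 and CCDC18 by 0.31 ± 0.09, and without CHLA-20 JSK591 replicate 1 the changes were -0.24 (edgeR adjusted p = 0.206) and 0.26 (adjusted p = 0.0761), and without CHLA-20 DMSO replicate 1 they were -0.34 (adjusted p = 0.0558) and 0.21 (adjusted p = 0.163).

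More RNAs differed between the untreated lines than with either treatment. Of the 105 RNAs, 30 (28.6%) were higher and 61 (58.1%) lower in NGP DMSO than in CHLA-20 DMSO, with a median log2 difference of -0.38, against 36.6% and 38.9% of all genes tested, 41.7% and 43.7% of those with at least 1000 counts and 33.0% and 49.6% of the other long noncoding genes. The minimum on summed counts admits RNAs that are high in 1 line only, so these counts are a description. Among the 76 RNAs with at least 500 counts in each line, 20 were higher and 42 lower. Over 99 pairs, the difference of an RNA and that of its partner had a Pearson r of 0.35 and a Spearman rho of 0.48, and the same sign in 66.

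The next RNAs had almost no counts in 1 line. CCDC144NL-AS1 had 5177 counts in CHLA-20 DMSO and 2 in NGP DMSO, a ratio of 2560 (95% interval 710 to 21200). PAX8-AS1 had 3304 and 2 counts, a ratio of 1640 (95% interval 453 to 13500). Its partner PAX8, a gene of a paired-box factor, stood at 11.4 and 9.33 CPM against 0 and 0.0599. Introns of PAX8 hold 95.5% of the exonic bases of PAX8-AS1. Unspliced PAX8 RNA can be counted as PAX8-AS1, and its part was not tested. FOXD2-AS1 had 2 counts in CHLA-20 DMSO and 494 in NGP DMSO, a ratio of 249 (95% interval 68.7 to 2060). The intervals are exact for the counts pooled over the libraries of a group and cover counting error alone. These RNAs passed the minimum through the line where they are high, so the ratios are a description.

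VPS9D1-AS1 stood at 15.5 and 15.4 CPM in CHLA-20 DMSO and 0.179 and 0.210 in NGP DMSO (log2 -6.28 ± 0.19), while its enclosing partner VPS9D1 was higher in NGP (log2 0.74 ± 0.13). RBMS3-AS2, which lies wholly inside introns of the RNA-binding protein gene RBMS3, stood at 2.22 and 1.96 against 48.8 and 48.6 CPM (log2 4.54 ± 0.10), and RBMS3 at 125 and 113 against 76.3 and 76.1 (log2 -0.64 ± 0.05). These 2 pairs thus differed between the lines in opposite directions. ATP6V0E2-AS1 and PSMG3-AS1 were lower in NGP (log2 -3.87 ± 0.20 and -3.54 ± 0.21), as were their partners (-1.39 ± 0.05 and -0.63 ± 0.07). ID2-AS1 was higher in NGP (2.42 ± 0.18) along with ID2 (2.18 ± 0.04), and LOXL1-AS1 (2.11 ± 0.10) along with LOXL1 (3.25 ± 0.11), a lysyl oxidase gene. KIF25-AS1 was higher in NGP by a log2 of 2.17 ± 0.18.

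**Figure D5:**
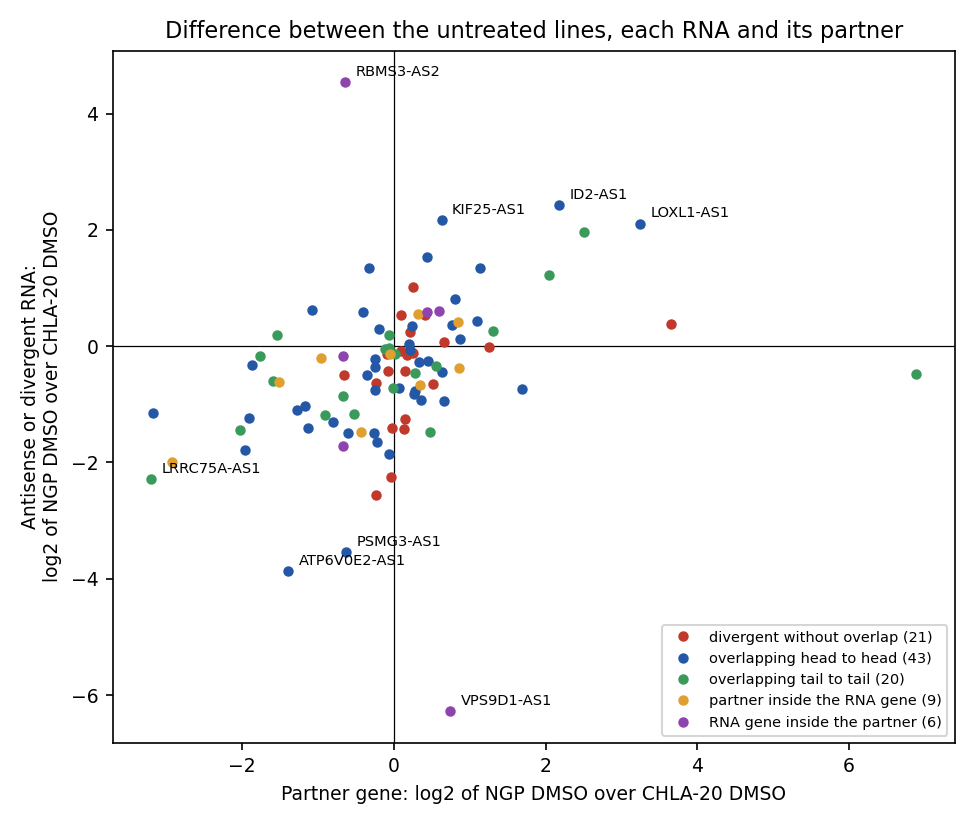
Log2 of NGP DMSO over CHLA-20 DMSO for the partner gene (x axis) and its antisense or divergent RNA (y axis), for 99 pairs coloured by layout. VPS9D1-AS1 (-6.28) and RBMS3-AS2 (4.54) lie farthest from 0 on the y axis, each with its partner on the other side of 0.

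The machinery that ends and degrades such RNAs was read from a list of 69 genes of the nuclear exosome, its adaptors, the Integrator, cleavage and polyadenylation factors, the U1 particle and cytoplasmic decay, of which 68 were tested. In CHLA-20, 26 were higher and 16 lower, with a median log2 change of 0.04, against 22.8% higher and 31.5% lower among all genes with at least 1000 counts. In NGP, 13 were higher and 28 lower, with a median of -0.08, against 20.5% and 28.9%. As shares of the 68, the higher genes in NGP were near that background. The lower genes in NGP and the higher genes in CHLA-20 stood above it, and the lower genes in CHLA-20 below it. No test of the list was made. Of 13 exosome genes, 7 were higher and 1 lower in CHLA-20 and 3 higher and 4 lower in NGP. Of 15 adaptor genes, 6 were higher and 4 lower in CHLA-20 and 3 higher and 7 lower in NGP. Of 13 Integrator genes tested, 3 were higher and 5 lower in CHLA-20 and 1 higher and 7 lower in NGP. Of 18 genes of cleavage, polyadenylation and termination, 9 were higher and 4 lower in CHLA-20 and 6 higher and 4 lower in NGP. Of 3 U1 genes, 2 were lower in each line, and of 6 cytoplasmic decay genes, 1 was higher in CHLA-20 and 4 were lower in NGP.

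Among the adaptors, the helicase gene MTREX changed by a log2 of -0.18 ± 0.04 in CHLA-20 and -0.28 ± 0.04 in NGP. ZFC3H1, of the complex that hands polyadenylated nuclear RNA to the exosome, rose in NGP from 31.2 and 27.7 CPM to 47.5 and 45.0 (log2 0.65 ± 0.06), and changed by 0.02 ± 0.05 in CHLA-20. ZC3H4, a restrictor of noncoding transcription, rose in both lines (0.30 ± 0.05 and 0.63 ± 0.05). ZCCHC8, a subunit of the nuclear exosome targeting complex, stood at 720 and 723 CPM in NGP DMSO against 51.0 and 51.1 in CHLA-20 DMSO, and fell in NGP to 576 and 578 (log2 -0.32 ± 0.03). The termination factor gene PCF11 rose in both lines (0.34 ± 0.05 and 0.39 ± 0.05). The part of these genes in the changes of the antisense and divergent RNAs was not tested.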

How the data were processed

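RNA enriched for messenger RNA was sequenced by DNBseq, per the labels' protocols. Each deposited file lists unnormalized read counts by gene for a single library; the authors used STAR and HTSeq on GRCh38 (DESeq2 is also named), per the submitters' processing notes; versions, annotation and strand setting are not given in the sources used here. All 58721 gene identifiers were found in GENCODE release 29, which gave symbols, types and overlaps. The 19395 genes kept by filterByExpr were fitted over the 4 groups with edgeR 4.0.16 (R 4.3.3, limma 3.58.1; Python 3.11.15 for tables), scaled by TMM, with no replicate block, and quasi-likelihood p-values were Benjamini-Hochberg adjusted over all of them at a threshold of 0.05. The biological coefficient of variation was 2.76% with 4 residual degrees of freedom. The fit was checked on simulated counts. SE comes from the F value.

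The 105 RNAs, the gene lists and the alternatives were chosen with earlier results of these data known. Named RNAs are the 6 largest called changes each way whose groups do not overlap, per line, and likewise by call for the difference (5 between lines), the 6 most abundant, those called oppositely in the lines or against their partner (at most 6 each), and those next to the count minimum; COX10-AS1 and others whose starts are shown were among them. Alternatives were other scalings, filters, DESeq2 1.42.0, a replicate block, removal of a GC trend, and each library left out. Some named RNAs are not reported here.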

Additional observations from a re-analysis of the deposited data

Results flagged for a closer look

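The effect of JSK591 differed between the lines, by edgeR's quasi-likelihood test of the difference itself, for 36 RNAs with a higher effect in NGP and for 4 with a lower one. Among those named, the log2 difference, NGP minus CHLA-20, was 1.57 for SLC9A3-AS1, 1.38 for KIF25-AS1, 1.13 for GABPB1-AS1, 1.13 for DICER1-AS1, 1.10 for NUP50-DT and 1.01 for TMEM147-AS1. It was -0.95 for SH3BP5-AS1, -0.47 for SVIL-AS1, -0.39 for PSMA3-AS1 and -0.28 for MAGI2-AS3. Without CHLA-20 DMSO replicate 1 the differences for KIF25-AS1 and TMEM147-AS1 lost their call, at 0.86 and 0.64.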

How the results depend on the processing

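The counts of RNAs and 200 values of named RNAs and partners were recomputed. With DESeq2, 6 RNAs were lower in NGP, against 10 in edgeR, and 7 were higher with the partner lower, against 13; the cause was not tested. No other scaling, filter, block or GC setting moved one of these counts by over 1.5 times. Leaving out 1 library gave 20 to 30 RNAs higher and 21 to 25 lower in CHLA-20, 37 to 52 and 7 to 10 in NGP, 29 to 33 and 4 to 5 for the difference, and 28 to 30 and 54 to 61 between lines. It gave 17 to 23 higher in both lines, 2 to 5 lower in both, 6 to 9 lower in CHLA-20 and higher in NGP, 6 to 14 higher in NGP with the partner lower, 8 to 14 with the partner higher, 10 to 14 divergent RNAs and 5 to 7 DT RNAs higher in NGP. A lone library left in a group is taken to vary like the others. FBXL19 in CHLA-20 reversed with the GC trend removed, to 0.15 (edgeR adjusted p = 0.0116) from -0.04. Of 2986 alternative values, 145 lost a call and 10 gained one, and 148 of the 200 never changed. Libraries of the same replicate number were not paired (correlations of deviations -0.0269 to 0.0122). A replicate block gave 28 higher and 26 lower in CHLA-20, 52 and 10 in NGP, 37 and 4 for the difference and 30 and 61 between lines. Each group has only 2 libraries, which limits the precision of every value.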
